A study of Mus musculus with 67 samples.

Results

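The 10 genes described here mark tissue macrophages or encode the C1q protein: C1qa, C1qb, C1qc, Csf1r, Adgre1, Itgam, Mrc1, Cd163, Aif1 and Lyz2. They were taken by gene symbol, as every probe set that the platform table assigns to one of these symbols. This gave 11 of 38385 probe sets and 10 of 19147 named genes, because Adgre1 alone has 2 probe sets. For Adgre1 the probe set with the higher mean in a tissue was used, and the other is reported beside it.

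C1q is the recognition unit of the classical complement pathway and is assembled from the products of C1qa, C1qb and C1qc. Unlike most complement proteins, which the liver secretes, C1q is made largely by macrophages, and it helps them take up dying cells and immune complexes. Resident macrophages live in every tissue studied here, as Kupffer cells in the liver sinusoids, as cells between the muscle fibres of the heart, around the tubules of the kidney and in the outer coat of the aorta.

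Transcripts were measured on 67 single-colour arrays in 4 tissues (liver, kidney, heart and aorta) taken from 12-week-old males. Each of the 3 groups is 1 inbred strain: BPH/2J, hypertensive, with a stated systolic pressure of 142 mmHg, BPN/3J, normotensive, at 94 mmHg, and BPL/1J, hypotensive, at 69 mmHg. No treatment or engineered allele is named for any group. Because each pressure class is 1 strain, pressure and the rest of the strain background cannot be told apart. Aorta was measured on 9 BPH, 5 BPN and 9 BPL arrays, heart and liver on 5 arrays per strain, and kidney on 5 BPH, 5 BPN and 4 BPL arrays. The design names 5 mice per strain, and arrays are not tied to animals, so p-values measure only how far arrays spread, which may be partly technical, and the tissues may come from the same mice. Aorta RNA was amplified by another protocol than the RNA of the other tissues, and levels are compared only within a tissue.

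Values are log2 intensities of one probe set, levels are given as mean ± SD over arrays, and differences are log2 differences ± standard error from limma, fitted to the 3 strains of each tissue. P-values from limma were adjusted by Benjamini-Hochberg over all 38385 probe sets, and a gene is called higher or lower where the adjusted p is under 0.05. The tissue labels were borne out by defining transcripts: the summed intensity of 5 cardiomyocyte genes was 78698 to 83954 in heart, that of 3 hepatocyte genes 28146 to 31100 in liver, that of 5 kidney epithelial genes 25733 to 29367 in kidney, and that of 5 smooth muscle genes 24426 to 33064 in aorta. A pair of arrays stood apart in the macrophage genes. Aorta BPN array 14 was below its strain mean for all 10 genes, and heart BPN array 2 was above it for 9 of 10. Values without them are given beside the called heart differences from BPN and beside the aorta results they change.

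The files give no detection calls. Lyz2 had a mean below the lower quartile of the arrays in all 3 strains of every tissue, Itgam had one in aorta, and the means of the other 8 members lay above it throughout. For these probe sets, and for the second Adgre1 probe set in aorta and kidney, no fold is given. In whole tissue, fewer macrophages and less RNA of these genes per macrophage cannot be told apart. Levels are probe set signals, and whether sequence differences between the strains under the probes change them was not tested.

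Some of the macrophage and C1q genes were lower in hypertensive BPH than in normotensive BPN mice in heart, kidney and liver. C1qb, C1qc, Adgre1 and Aif1 were called lower in each of these 3 tissues, 4 of 10 members, where 0.581% of all probe sets were. The Adgre1 calls rest on 1 of its 2 probe sets, and the kidney call of Aif1 was lost without any 1 of 3 arrays and in a joint limma fit of all tissues (adjusted p = 0.053). In heart 5 of 10 members were lower and 0 higher, against 3.51% of all probe sets called lower and 3.51% called higher. Of these 5, Cd163 was at the threshold (limma adjusted p = 0.049) and was lost without any 1 of 13 of the 15 heart arrays. In kidney 4 were lower and 0 higher (3.39% and 3.66% of all probe sets), and in liver 6 were lower and 0 higher (3.85% and 3.29%). The median difference of the 10 members was -0.30 in heart, -0.41 in kidney and -0.32 in liver, while the median over all probe sets was 0.0066, -0.0014 and 0.0025. In aorta 0 of 10 members were called in either direction (4.7% of all probe sets lower, 4.45% higher), although all 10 differences were below 0, with a median of -0.38, and 6 had an unadjusted p under 0.05, as 20.4% of all probe sets did.

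Hypotensive BPL mice also had lower levels of several members than BPN mice, in heart and liver. In heart 7 of 10 members were lower and 0 higher (5.2% and 4.14% of all probe sets), and in liver 6 were lower and 0 higher (3.7% and 3.77%). C1qa, C1qb, C1qc, Csf1r, Cd163 and Aif1 were lower in both tissues, 6 of 10 members, against 1.12% of all probe sets. In kidney 0 members were called (3.02% of all probe sets lower, 3.22% higher), and in aorta 0 were called (5.2% lower, 5.14% higher). At an unadjusted p under 0.05, 1 was lower and 1 higher in kidney, where 18.1% of all probe sets passed in either direction. In aorta 2 were lower at that limit, where 21.2% of all probe sets passed, so these counts are near the share of all probe sets. In the joint fit of all tissues described with the differences between tissues, the BPL calls in liver numbered 0 and those in heart 4. The heart calls lost there were C1qb, Csf1r and Adgre1 (joint limma fit, adjusted p = 0.097, 0.43 and 0.14). The contrasts of BPH and of BPL with BPN share the BPN arrays, so a high or low BPN group moves both.

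Set directly against each other, BPH and BPL differed in few members. Cd163 was higher in BPH heart, 1 of 10 members (4.59% of all probe sets higher, 3.97% lower). C1qb and C1qc were lower in BPH kidney, 2 of 10 (3.19% lower, 3.14% higher), and the same genes were lower in BPH liver, 2 of 10 (3.09% lower, 2.68% higher). In aorta 0 of 10 were called (5.36% lower, 5.67% higher), while 3 were lower and 1 higher at an unadjusted p under 0.05. At that limit 21.7% of all probe sets passed in either direction.

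**Figure D1:**
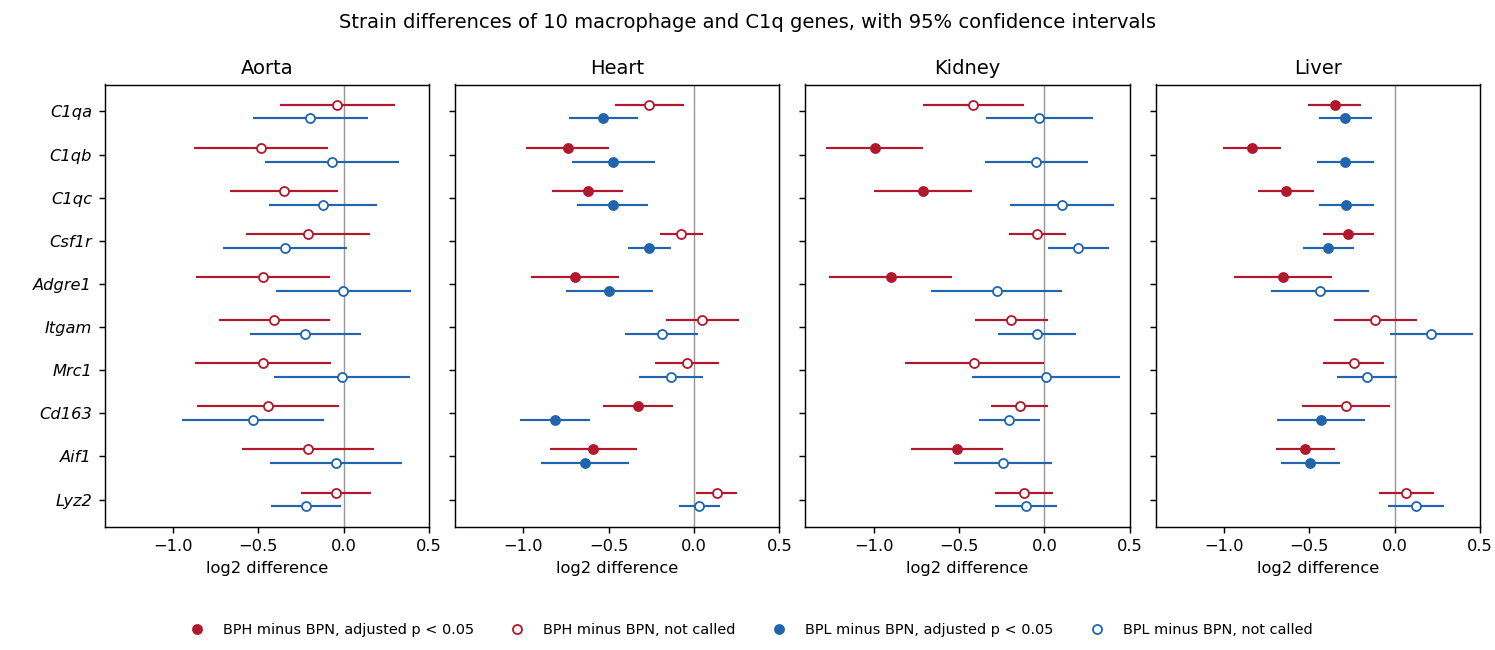
Log2 differences of BPH minus BPN (red) and BPL minus BPN (blue) for the 10 genes in each tissue, with 95% confidence intervals of the limma fit. Filled points passed an adjusted p of 0.05. In heart, kidney and liver C1qb, C1qc, Adgre1 and Aif1 lie to the left of 0 in BPH, and in aorta 0 points are filled.

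The 3 C1q genes lie side by side on mouse chromosome 4, in the order Ephb2, C1qb, C1qc, C1qa and Epha8. The promoters of C1qb and C1qc, both lower in BPH than in BPN heart, kidney and liver, are shown as read from RefSeq for build GRCm38.p6. The build behind the array's probes is not given in the sources used here. The windows hold the 250 bases before each transcription start, at chr4:136886201-136886450 for C1qb and chr4:136892915-136893164 for C1qc, both on the minus strand and written 5′ to 3′. Capitals mark GAGGAA, the core of the purine-rich box bound by the macrophage factor PU.1, and GGAAGT, a core bound by ETS-family factors, on either strand.
C1qb: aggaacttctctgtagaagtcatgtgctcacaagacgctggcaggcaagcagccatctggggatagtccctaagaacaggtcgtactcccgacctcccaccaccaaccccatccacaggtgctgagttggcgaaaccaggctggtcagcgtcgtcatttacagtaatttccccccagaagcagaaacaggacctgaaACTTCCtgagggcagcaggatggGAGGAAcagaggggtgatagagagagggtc
C1qc: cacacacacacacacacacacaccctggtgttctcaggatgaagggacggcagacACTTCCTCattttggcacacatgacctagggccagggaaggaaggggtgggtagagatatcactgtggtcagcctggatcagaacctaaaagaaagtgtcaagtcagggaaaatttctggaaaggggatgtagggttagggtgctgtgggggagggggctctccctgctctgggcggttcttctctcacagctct

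In C1qb, GAGGAA lies on the gene's strand 30 to 25 bases before the start, and GGAAGT on the opposite strand 53 to 48 bases before it. In C1qc both lie on the opposite strand and overlap, GAGGAA at 193 to 188 and GGAAGT at 195 to 190 bases before the start. At least 1 of them was present in 6 of the 7 members in the promoter table, against 36.7% of 32851 promoters of the same length. Members were counted as genes, matched if any listed promoter of the gene matched, while the share is over single promoters. GAGGAA alone was in 5 of 7 members and 23.3% of promoters, and GGAAGT in 4 of 7 and 19.7%. C1qa, Adgre1 and Csf1r were not in that table. These are letter matches and are not measured binding sites.

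C1qb, the gene of the C1q B chain, had the largest difference between BPH and BPN mice among the 10 members in heart, kidney and liver. In kidney it measured 6.26, 6.40, 6.41, 6.46 and 6.51 on the 5 BPH arrays and 7.22, 7.26, 7.29, 7.42 and 7.82 on the 5 BPN arrays. On the 4 BPL arrays it measured 6.96, 7.16, 7.59 and 7.70. Every BPH array was below every array of both other strains, and BPN and BPL overlapped. The BPH minus BPN difference was -0.99 ± 0.14, a level 1.99-fold lower (limma adjusted p = 0.00012), and the BPH minus BPL difference was -0.95 ± 0.14 (adjusted p = 0.00036).

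In liver C1qb fell into 3 separate ranges. It measured 7.11, 7.27, 7.41, 7.42 and 7.52 in BPH, 7.82, 7.87, 7.88, 7.91 and 7.99 in BPL, and 8.03, 8.13, 8.19, 8.20 and 8.37 in BPN. BPH was 1.78-fold below BPN (-0.84 ± 0.08, limma adjusted p = 8.8e-07) and 1.46-fold below BPL (-0.55 ± 0.08, adjusted p = 0.00016). BPL was 1.22-fold below BPN (-0.29 ± 0.08, adjusted p = 0.033), and this last call was lost without any 1 of 7 arrays, BPL 1, 3, 4 or 5 or BPN 1, 2 or 4, with adjusted p-values of 0.058 to 0.096.

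In heart C1qb measured 8.40, 8.48, 8.52, 8.67 and 8.73 in BPH, 8.77, 8.79, 8.81, 8.86 and 8.89 in BPL, and 9.10, 9.11, 9.17, 9.26 and 9.86 in BPN. The 3 strains did not overlap, and the highest value is BPN array 2. BPH was 1.67-fold below BPN (-0.74 ± 0.12, limma adjusted p = 0.00033) and BPL 1.39-fold below it (-0.47 ± 0.12, adjusted p = 0.013). Without BPN array 2 these differences were -0.60 (adjusted p = 2.3e-05) and -0.33 (adjusted p = 0.0056), and BPH minus BPL, -0.27 with all arrays (adjusted p = 0.19), then passed at the same size (adjusted p = 0.016).

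C1qc, the gene of the C chain, followed C1qb in each of these tissues. In kidney it measured 5.74, 5.75, 5.80, 5.83 and 6.07 in BPH against 6.31, 6.33, 6.56, 6.63 and 6.93 in BPN and 6.30, 6.46, 6.90 and 6.95 in BPL. BPH lay below both other strains without overlap, by 1.64-fold against BPN (-0.71 ± 0.14, limma adjusted p = 0.0027) and 1.76-fold against BPL (-0.81 ± 0.14, adjusted p = 0.0015). In liver BPH arrays spanned 7.02 to 7.43, BPL arrays 7.55 to 7.76 and BPN arrays 7.88 to 8.05, again 3 separate ranges.

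The C1qc difference of BPH from BPN was -0.64 ± 0.08 in liver (limma adjusted p = 1.5e-05) and -0.62 ± 0.10 in heart (adjusted p = 0.00041), where it was -0.51 without BPN array 2 (adjusted p = 0.00018). BPL was lower than BPN by a smaller amount in liver, -0.28 ± 0.08 (adjusted p = 0.029), a call lost without BPL array 1, 3 or 4 or BPN array 2 (adjusted p from 0.050 to 0.078). In heart the BPL difference was -0.48 ± 0.10 (adjusted p = 0.0041), and without BPN array 2 it was -0.37 (adjusted p = 0.0034).

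C1qa, the gene of the A chain, changed less in BPH mice. In heart it measured 9.44, 9.46, 9.47, 9.58 and 9.63 in BPH against 9.58, 9.63, 9.65, 9.79 and 10.23 in BPN, so the strains overlapped, and the difference of -0.26 ± 0.10 did not pass (limma adjusted p = 0.13), nor did it without BPN array 2, at -0.15 (adjusted p = 0.22). In kidney, at -0.42 ± 0.14, it did not pass either (adjusted p = 0.093). In liver BPH arrays reached from 7.78 to 8.12 and BPN arrays from 8.22 to 8.50, and the difference of -0.35 ± 0.07 was called (adjusted p = 0.0048), a call lost in the joint fit of all tissues (adjusted p = 0.19).

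C1qa was lower in BPL than in BPN mice in heart and liver. The 5 BPL hearts measured 9.21, 9.23, 9.24, 9.24 and 9.32, below every BPN heart and every BPH heart. The difference from BPN was -0.53 ± 0.10 (limma adjusted p = 0.0012), and -0.42 without BPN array 2 (adjusted p = 0.00024). The difference of BPH from BPL, 0.27 ± 0.10, did not pass with all arrays (adjusted p = 0.10) and passed without BPN array 2 (adjusted p = 0.0062), when its standard error was 0.06. In liver C1qa was lower in BPL than in BPN by -0.29 ± 0.07 (adjusted p = 0.019), a call lost without BPN array 2 (adjusted p = 0.057) and in the joint fit (adjusted p = 0.35).

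**Figure D2:**
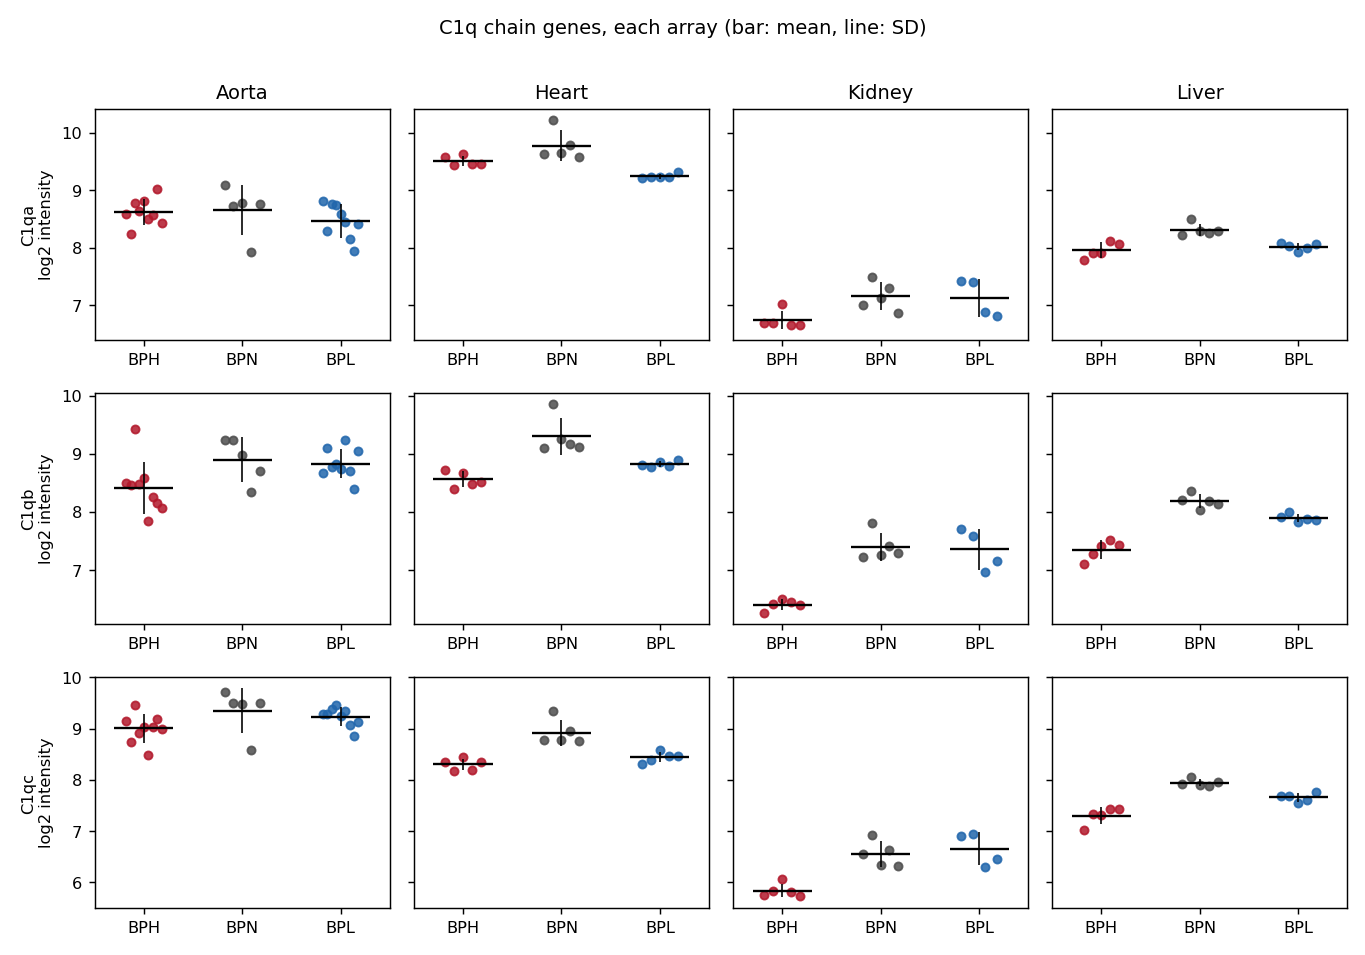
Log2 intensity of C1qa, C1qb and C1qc on each array, by tissue and strain. Each point is 1 array, bars are strain means and vertical lines are SDs. In kidney the BPH points of C1qb and C1qc lie below all other arrays, and in liver the 3 strains form separate ranges for both genes.

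Since the 3 chains form one protein and their genes are neighbours, C1qb and C1qc were also compared with C1qa within each array. This comparison was chosen after the values were seen, so its p-values are no independent support. How many other gene pairs separate the strains without overlap, here or in the comparisons that follow, was not computed. Relative to C1qa, C1qb was lower in BPH than in BPN mice by -0.48 in heart, -0.58 in kidney and -0.48 in liver, and C1qc by -0.36, -0.30 and -0.29. In aorta these shifts were -0.45, which did not pass (exact permutation adjusted p = 0.092), and -0.31 (exact permutation adjusted p = 0.017). In each of the 6 comparisons in heart, kidney and liver the BPH arrays did not overlap with the BPN arrays (two-sided exact permutation p = 0.0079, the smallest that 5 against 5 allows, and 0.014 adjusted over 36 tests). Without heart BPN array 2 the heart shifts were -0.45 for C1qb and -0.37 for C1qc, still without overlap, and without aorta BPN array 14 the aorta shifts were -0.40 and -0.32.

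The same shift stood between BPH and BPL mice. C1qb relative to C1qa was lower in BPH by -0.53 in heart, -0.56 in kidney and -0.49 in liver, and C1qc by -0.41, -0.43 and -0.29, with 0 overlapping arrays in each case. In aorta, with 9 arrays of each strain, the shifts were -0.57 for C1qb and -0.38 for C1qc with overlapping arrays (exact permutation adjusted p = 0.016 and 0.014). BPL and BPN, by contrast, gave differences from -0.02 to 0.13 over the 4 tissues for both chains, and 0 of these 8 comparisons passed. These values compare chains within an array and do not show that C1qa was unchanged. Whether sequence differences between the strains under the probes of these genes contribute to the shift was not tested.

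Against Csf1r, the growth factor receptor carried by nearly all macrophages, C1qb was lower in BPH than in BPN mice by -0.66 in heart, -0.95 in kidney and -0.56 in liver (exact permutation adjusted p = 0.014 in each), and arrays did not overlap. Without heart BPN array 2 the heart shift was -0.56. In aorta the shift of -0.28 did not pass (exact permutation adjusted p = 0.16). Against BPL, C1qb relative to Csf1r was lower in BPH by -0.45 in heart, -0.71 in kidney and -0.66 in liver, without overlap, and by -0.55 in aorta with overlapping arrays (exact permutation adjusted p = 0.014 in each). Between BPL and BPN it differed in aorta, by 0.28 (exact permutation adjusted p = 0.046), and did not pass in heart (-0.21), kidney (-0.25) or liver (0.10).

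**Figure D3:**
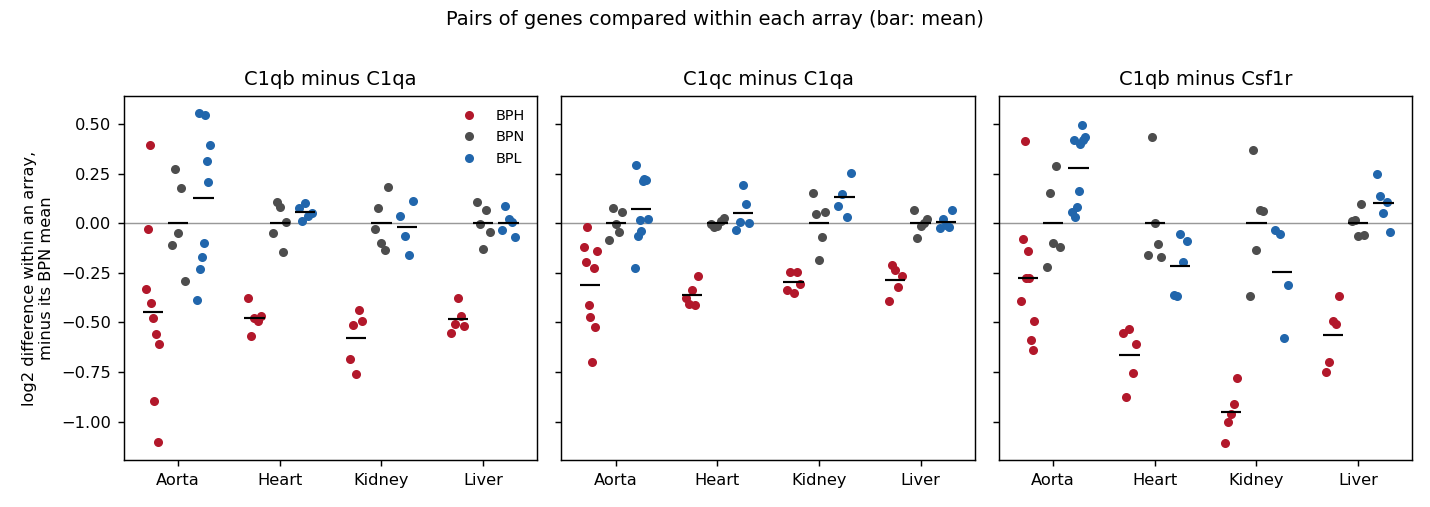
Difference between 2 genes within each array, minus its mean over the BPN arrays of the tissue, for C1qb and C1qc against C1qa and for C1qb against Csf1r. Points are arrays and bars are strain means. BPH points (red) in heart, kidney and liver lie below the BPN and BPL points, without overlap.

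Csf1r encodes the receptor for the growth factors Csf1 and Il34, on which most tissue macrophages depend. In heart it measured 8.13, 8.21, 8.24, 8.28 and 8.28 in BPH and 8.26, 8.27, 8.28, 8.28 and 8.43 in BPN, overlapping ranges with a difference of -0.07 ± 0.06 (limma adjusted p = 0.61). In BPL hearts it measured 7.92 to 8.17, below every BPN heart, by -0.26 ± 0.06 (adjusted p = 0.0093, and -0.23 with adjusted p = 0.030 without BPN array 2). Kidney showed no call, with BPH minus BPN at -0.04 ± 0.08 (95% interval -0.21 to 0.12) and BPL minus BPN at 0.20 ± 0.08 (adjusted p = 0.21).

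In liver Csf1r was lower in both strains. It measured 7.20, 7.27, 7.31, 7.38 and 7.44 in BPH and 7.07, 7.18, 7.18, 7.27 and 7.32 in BPL, against 7.50, 7.51, 7.60, 7.60 and 7.76 in BPN. BPN did not overlap with either. The differences were -0.27 ± 0.07 for BPH (limma adjusted p = 0.023, lost without BPH array 1 or 5 or BPN array 2, at 0.059 to 0.067, and in the joint fit, at 0.35) and -0.39 ± 0.07 for BPL (adjusted p = 0.0012). The BPL call was also lost in the joint fit (adjusted p = 0.075).

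Adgre1, an adhesion receptor long used as the surface mark of mouse macrophages, was lower in BPH mice by an amount close to that of C1qb. In kidney it measured 3.61, 3.72, 3.93, 3.97 and 4.08 in BPH, 4.60, 4.68, 4.77, 4.83 and 4.94 in BPN, and 3.98, 4.29, 4.43 and 5.24 in BPL. BPH and BPN did not overlap, and the difference was -0.90 ± 0.17 (1.87-fold, limma adjusted p = 0.0027). The BPH mean, 3.86, lay close above the lower quartile of the kidney arrays, which reached 3.64, so this fold is taken near the floor. BPL spread over both ranges. Without BPL array 1, the highest, its difference from BPN moved from -0.28 ± 0.18 to -0.53 and was called (adjusted p = 0.015), and without BPL array 5, the lowest, BPH minus BPL moved from -0.62 (adjusted p = 0.054) to -0.79 (adjusted p = 0.011).

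In heart Adgre1 measured 6.08 to 6.75 in BPH, 6.56 to 6.81 in BPL and 7.03 to 7.65 in BPN, and neither strain overlapped with BPN. BPH was lower by -0.70 ± 0.12 (limma adjusted p = 0.0010) and BPL by -0.50 ± 0.12 (adjusted p = 0.014), and without BPN array 2 by -0.59 and -0.38 (adjusted p = 0.0017 and 0.032). In liver BPH arrays at 5.71 to 6.32 overlapped slightly with BPN arrays at 6.24 to 6.96, and the difference of -0.65 ± 0.14 was called (adjusted p = 0.0047). The liver BPL difference, -0.43 ± 0.14, did not pass (adjusted p = 0.062) and passed without BPH array 4 or BPN array 3 or 5 (adjusted p from 0.017 to 0.046).

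The second Adgre1 probe set, with a lower mean in each tissue, gave smaller differences of BPH from BPN in the same direction, and was not called in any tissue or contrast. Its BPH minus BPN differences were -0.27 ± 0.13 in heart (limma adjusted p = 0.32), -0.25 ± 0.14 in kidney (adjusted p = 0.39), -0.41 ± 0.12 in liver (adjusted p = 0.052) and -0.31 ± 0.11 in aorta (adjusted p = 0.087). Against BPL, its BPH differences were 0.04 in kidney (adjusted p = 0.93) and 0.04 in heart (adjusted p = 0.91). The probe set used gave -0.62 and -0.20 there. Why the probe sets differed was not tested.

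Aif1 encodes an actin-bundling protein of macrophages and microglia. In heart it measured 5.48, 5.58, 5.67, 5.78 and 5.78 in BPH and 5.50, 5.55, 5.59, 5.62 and 5.78 in BPL, both below the BPN values of 5.96, 6.02, 6.07, 6.47 and 6.72. The differences from BPN were -0.59 ± 0.12 (limma adjusted p = 0.0042) and -0.64 ± 0.12 (adjusted p = 0.0019), and without BPN array 2 they were -0.47 and -0.52 (adjusted p = 0.0064 and 0.0026). BPH and BPL differed by 0.05 ± 0.12.

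Liver gave the same picture for Aif1. BPH spanned 5.14 to 5.48 and BPL 5.29 to 5.42, against 5.65 to 6.11 in BPN, and both were lower, by -0.52 ± 0.08 (limma adjusted p = 0.00034) and -0.49 ± 0.08 (adjusted p = 0.00054). The BPL call in liver was lost in the joint fit (adjusted p = 0.054). In kidney BPH measured 4.07 to 4.53 and BPN 4.60 to 5.08, a difference of -0.51 ± 0.13 (adjusted p = 0.019). That kidney call was lost without BPH array 4 or BPN array 2 or 4 (adjusted p from 0.050 to 0.057) and in the joint fit (0.053), and BPL in kidney, at -0.24 ± 0.13, was not called.

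Cd163 and Mrc1 are scavenger receptors of resident macrophages, for haemoglobin bound to haptoglobin and for mannose-rich glycoproteins. Cd163 had the largest difference of BPL from BPN among the members in heart, where it measured 6.23, 6.29, 6.45, 6.52 and 6.57 in BPL, 6.69, 6.76, 6.88, 6.98 and 7.17 in BPH, and 7.10, 7.15, 7.17, 7.21 and 7.51 in BPN. BPL was below every array of both other strains. It was 1.76-fold below BPN (-0.82 ± 0.10, limma adjusted p = 1.6e-05) and 1.40-fold below BPH (0.49 ± 0.10 higher in BPH, adjusted p = 0.0029). The call against BPH was lost in the joint fit (adjusted p = 0.086). Without BPN array 2 the BPL difference was -0.75 (adjusted p = 4.1e-05).

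The smaller Cd163 difference of BPH from BPN hearts, -0.33 ± 0.10, was at the threshold (limma adjusted p = 0.049) and was lost on leaving out any 1 of 13 of the 15 heart arrays, with adjusted p-values of 0.050 to 0.14; without BPN array 2 it was -0.26 (adjusted p = 0.14). It was also lost in the joint fit (adjusted p = 0.50). In liver BPL was lower than BPN by -0.43 ± 0.12 (adjusted p = 0.037), at 5.26 to 5.87 against 5.89 to 6.23, a call lost without any 1 of 7 arrays, BPL 1, 2 or 3 or BPN 2, 3, 4 or 5 (adjusted p from 0.055 to 0.11). The joint fit lost this liver call too (adjusted p = 0.13). In BPH liver the difference was -0.29 ± 0.12 (adjusted p = 0.21). Kidney gave no call, with arrays between 3.72 and 4.22, close above the lower quartile of the kidney arrays, which reached 3.64.

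Mrc1 was not called in any tissue or contrast. In heart the strains spanned 8.20 to 8.39 in BPH, 8.09 to 8.30 in BPL and 8.19 to 8.75 in BPN, and the BPH minus BPN difference was -0.04 ± 0.09 (95% interval -0.23 to 0.15). Without BPN array 2 it turned to 0.06 ± 0.06 (limma adjusted p = 0.75). In liver this difference was -0.24 ± 0.08 (limma adjusted p = 0.11) and in kidney -0.41 ± 0.19 (adjusted p = 0.28). Sinusoidal endothelial cells of the liver also express Mrc1. Of a list of 5 of their markers, which includes Mrc1, Stab2 and Lyve1 were higher in BPH liver, by 0.26 ± 0.07 and 0.45 ± 0.13 (adjusted p = 0.027 and 0.0497), 0 were lower, and the median of the list was -0.03. Of all probe sets 3.29% were higher and 3.85% lower in BPH liver. The part of sinusoidal endothelial cells in the Mrc1 value was not tested.

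Itgam encodes the alpha subunit of complement receptor 3, which binds opsonised particles and is shared with neutrophils and monocytes. It was not called in heart, where BPH minus BPN was 0.05 ± 0.10 (95% interval -0.16 to 0.26), nor in kidney (-0.19 ± 0.10, limma adjusted p = 0.35), nor in liver (-0.11 ± 0.12, adjusted p = 0.68). Its kidney means, 3.74 to 3.93, lay close above the lower quartile of the kidney arrays, which reached 3.64. Lyz2, the lysozyme of macrophages and granulocytes, had means from 1.87 to 2.48 over all tissues and strains, below the lower quartile of the arrays. Lysozyme is an abundant transcript of macrophages, so this probe set gave no usable level, and its differences, from -0.22 to 0.17, were not called.

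**Figure D4:**
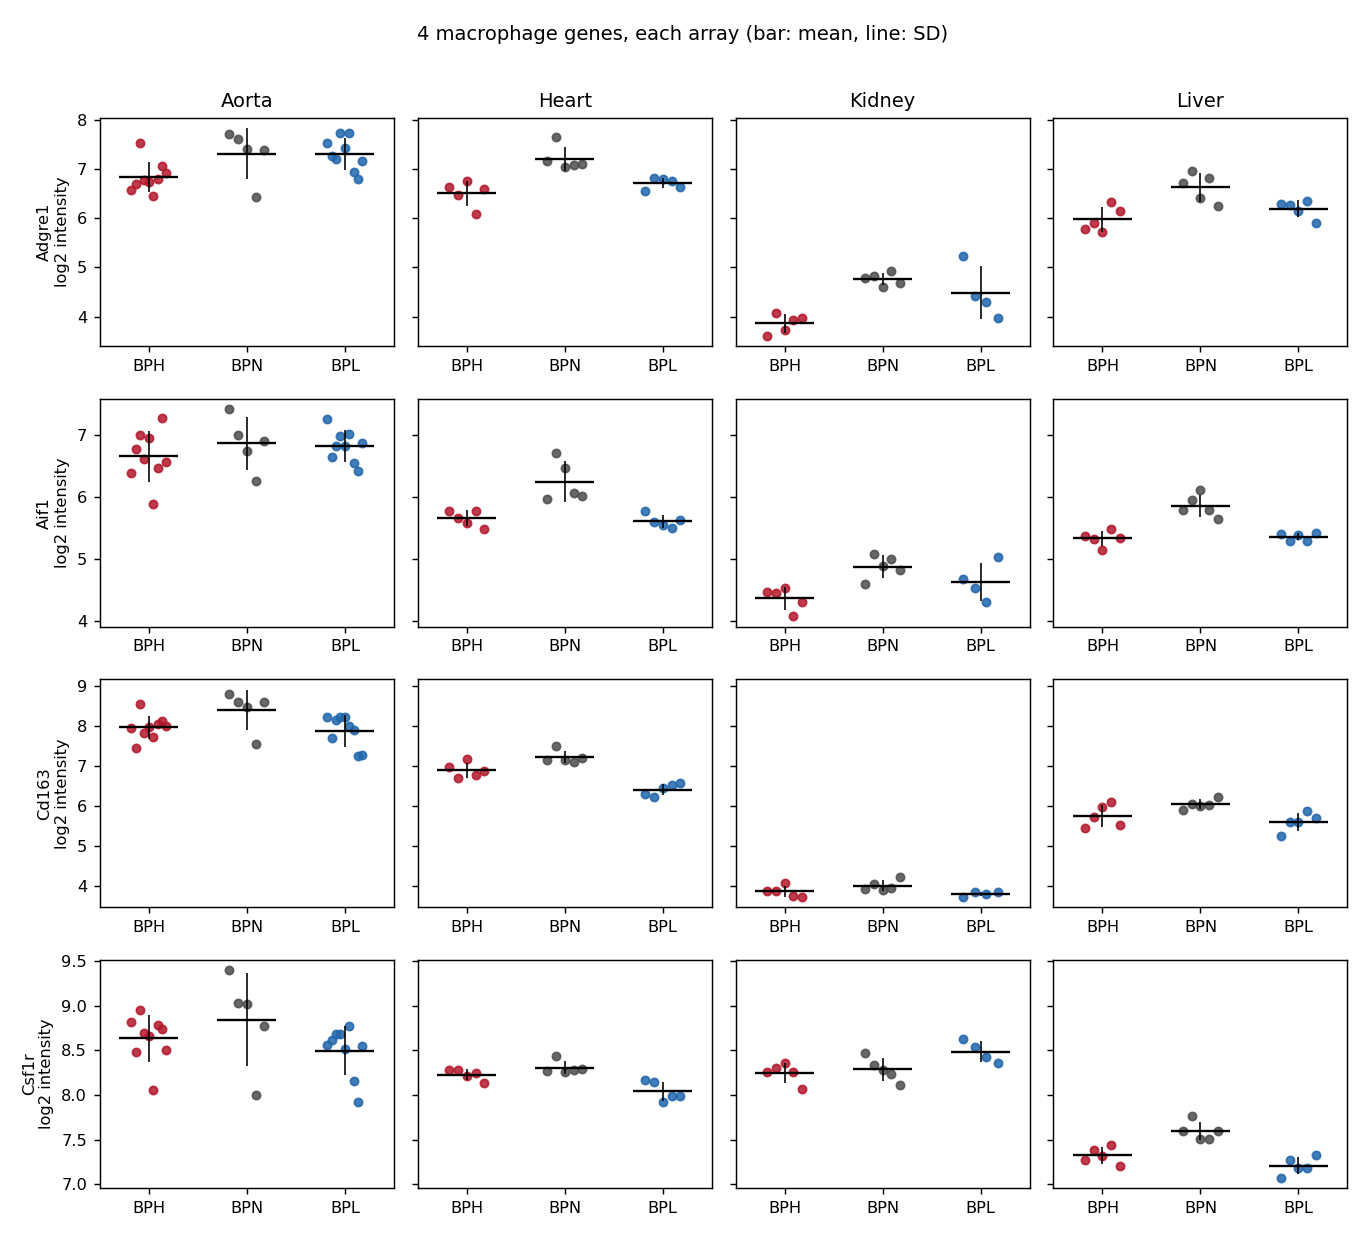
Log2 intensity of Adgre1, Aif1, Cd163 and Csf1r on each array, by tissue and strain, with strain means (bars) and SDs (vertical lines). In heart the BPN arrays lie above both other strains for Adgre1 and Aif1, and the BPL arrays lie below the rest for Cd163.

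In aorta the same members leaned down in BPH mice, but the arrays spread more widely and calls depended on single arrays. C1qb ranged from 7.84 to 9.42 in the 9 BPH aortas with a median of 8.46, from 8.40 to 9.23 in the 9 BPL aortas with a median of 8.77, and measured 8.35, 8.71, 8.98, 9.23 and 9.24 in the 5 BPN aortas. The BPH minus BPN difference was -0.48 ± 0.19 (limma adjusted p = 0.13). It was called without BPH array 5, the highest BPH value, at -0.61 (adjusted p = 0.011), and not without BPN array 14, at -0.62 (adjusted p = 0.052).

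BPN array 14 was the lowest BPN aorta for each of the 10 members. C1qc measured 8.58 there and 9.48, 9.49, 9.51 and 9.71 on the other 4 BPN arrays, Adgre1 measured 6.42 against 7.39 to 7.71, and Cd163 measured 7.54 against 8.50 to 8.82. With all arrays the BPH minus BPN differences of C1qc, Adgre1, Itgam, Mrc1 and Cd163 were -0.35, -0.47, -0.41, -0.47 and -0.44, with limma adjusted p-values of 0.12 to 0.20. Without BPN array 14 they were -0.54, -0.69, -0.52, -0.69 and -0.66 and all 5 were called lower (adjusted p = 0.0080, 0.0097, 0.048, 0.012 and 0.025), Itgam on a mean below the lower quartile of the arrays. The array stood out by these same values, so leaving it out raises the BPN means by construction. These calls are therefore no separate support, and the share of all probe sets called without the array is not given.

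Leaving out that array also brought calls for BPL, lower than BPN by -0.56 for Csf1r (limma adjusted p = 0.022) and -0.75 for Cd163 (adjusted p = 0.0094). Other lists moved on the same array. The summed intensity of 5 adipocyte genes was 4006 on BPN array 14 and 8297 to 13007 on the other BPN aortas, that of 5 mast cell genes 306 against 657 to 1186, and that of 8 neutrophil genes 2187 against 544 to 1123. Their part in the low macrophage values was not tested.

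Between BPH and BPL aortas, Adgre1 and Mrc1 differed by -0.47 ± 0.16 and -0.46 ± 0.16 (limma adjusted p = 0.063 and 0.074). Adgre1 was called without BPH array 5, BPL array 27 or 28 or BPN array 14 (adjusted p from 0.017 to 0.046), Mrc1 without BPH array 2 or 5 or BPN array 14 (0.028 to 0.045), and C1qb, -0.42 ± 0.16 with all arrays (adjusted p = 0.11), without BPH array 5 (0.0068). The largest of these counts, without BPH array 5, was 3 of 10 members. In the same contrast 7 of 8 neutrophil genes were higher in BPH and 0 lower (5.67% and 5.36% of all probe sets). Their median was 1.22 and S100a9 was at 1.96 ± 0.36. The summed level of the list was 748 to 9636 against 593 to 1147 in BPL. The part of neutrophils in the member values was not tested.

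Differences between tissues in a strain effect were tested by interaction contrasts, with the 12 groups fitted jointly in limma. Only Lyz2 gave a call, in 1 of 12 comparisons: its BPL minus BPN difference was lower in aorta than in liver by -0.34 (adjusted p = 0.040), on a probe set below the lower quartile of the arrays, and 11.2% of all probe sets were called in that comparison. For BPH minus BPN, 0 of 10 members differed between heart and aorta (7.29% of all probe sets called), heart and kidney (2.3%), heart and liver (3.11%), aorta and kidney (9.08%), aorta and liver (10.7%) or kidney and liver (2.65%). For BPL minus BPN, 0 of 10 differed between heart and aorta (8.03%), heart and kidney (2.65%), heart and liver (3.92%), aorta and kidney (9.58%) or kidney and liver (3.04%).

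For BPL this depended on the fit. With only the tissues compared, the BPL difference was lower in heart than in kidney for Cd163 (-0.61, limma adjusted p = 0.0031) and Csf1r (-0.46, adjusted p = 0.0032), and that of Csf1r differed between kidney and liver (0.59, adjusted p = 0.00045). With quantile normalisation over all tissues Cd163 was called in heart against kidney (-0.76, limma adjusted p = 0.033). In the joint fit the closest to the threshold were Csf1r, whose BPL difference in aorta against kidney was -0.55 (joint limma fit, adjusted p = 0.0504), Aif1 in heart against aorta (-0.59, adjusted p = 0.084) and Csf1r in kidney against liver (0.59, adjusted p = 0.10). C1qc, at -0.58 in heart against kidney, had an unadjusted p of 0.0062 and an adjusted p of 0.14.

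The members were also followed array by array after removing each strain's mean. In aorta they rose and fell together: the median Pearson r over the 45 pairs of members was 0.64, and 39 of 45 pairs were above 0. In heart, kidney and liver the median was 0.24, 0.17 and 0.23. Without BPN array 14 the aorta median was 0.55 with 34 of 45 pairs above 0, and without BPN array 2 the heart median was -0.12 with 18 of 45 pairs above 0, values computed after the arrays were seen to stand apart. The mean deviation of the 10 genes ranged from -0.68 (BPN array 14) to 0.42 (BPH array 5) over the 23 aortas, and from -0.10 to 0.33 (BPN array 2) over the 15 hearts. In kidney and liver it ranged from -0.17 to 0.21 and from -0.14 to 0.18. The arrays of a tissue share their normalisation, which all members have in common.

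The C1q chains moved together within strains in heart, kidney and liver. Pearson's r of C1qb with C1qa was 0.94 in heart (Spearman's rho 0.83), 0.86 in kidney (rho 0.83) and 0.79 in liver (rho 0.70), with permutation p-values of 0.0043, 0.0045 and 0.0054 for r and 0.0042, 0.010 and 0.014 for rho. With C1qc, r was 0.89, 0.91 and 0.79 (rho 0.79, 0.82 and 0.69), with permutation p-values of 0.0044, 0.00095 and 0.0044 for r and 0.0047, 0.012 and 0.011 for rho. All 6 passed after adjustment over 36 relations, with adjusted permutation p from 0.0095 to 0.018 for r and 0.034 to 0.0497 for rho.

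In aorta the member closest to C1qb was Csf1r, with r = 0.74 and rho = 0.72 over 23 arrays (permutation p = 1e-05, the smallest that 100000 resamples give, and 0.00038). C1qc gave r = 0.70 (rho 0.50, permutation p = 0.00069 and 0.023), while C1qa gave r = 0.40 (rho 0.32, permutation p = 0.064 and 0.16). Over all 36 relations of C1qb with the other members 30 were positive and 14 passed, 5 in aorta and 3 in each other tissue. Without the 2 arrays farthest from the C1qb median of a tissue, 1 passed in aorta (Csf1r, r = 0.77), 1 in heart (C1qa, r = 0.77), 2 in kidney (C1qa and C1qc, r = 0.87 and 0.92) and 0 in liver. The other 10 no longer passed, in a test of fewer arrays. Some had a lower r, such as C1qc in heart (0.89 before, 0.69 after). Others did not, such as Adgre1 in liver (0.67 before, 0.70 after). Over the 14, r was then 0.45 to 0.92.

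**Figure D5:**
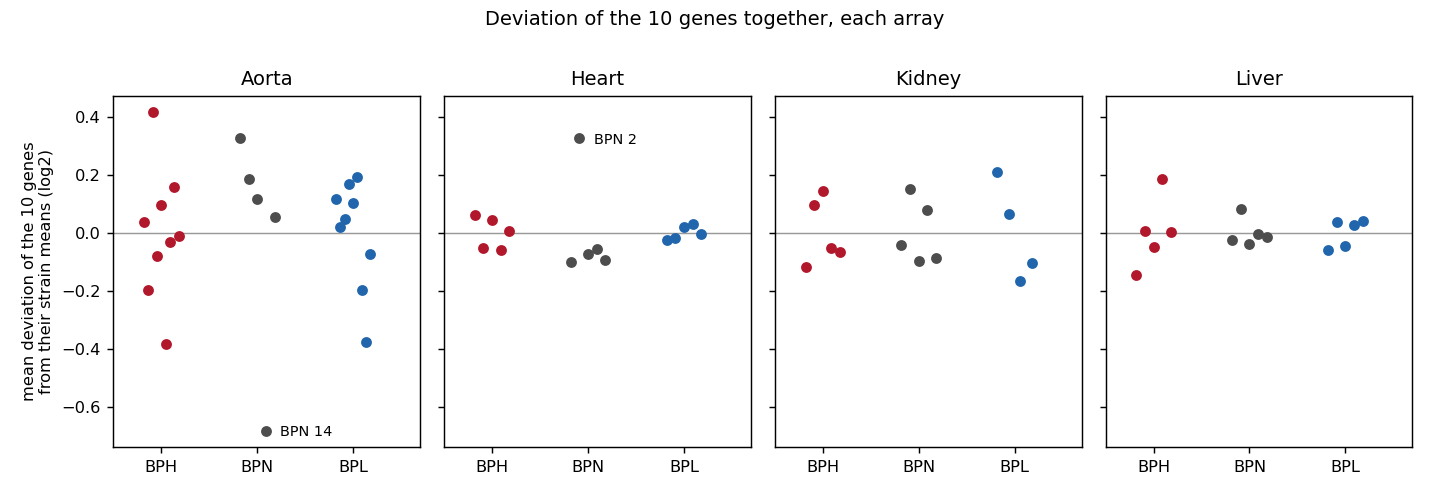
Mean deviation of the 10 genes from their strain means on each array, on the log2 scale, by tissue and strain. The labelled aorta BPN array 14 lies at -0.68 and the labelled heart BPN array 2 at 0.33, and the aortas spread more widely than the other tissues.

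Other genes with the pattern most like the mean deviation of the members were picked as the 5 of highest Pearson r among 19137 genes in each tissue. In aorta they were Clec4a1, Fcrls, Evi2a, Fcgr3 and Folr2, at r of 0.88 to 0.89 over 23 arrays, and Fcgr3 and Folr2 encode an immunoglobulin receptor and a folate receptor of macrophages. In heart they were Ms4a7 (r = 0.97), Adh7, Hmox1, Ms4a6d and Pglyrp1 over 15 arrays, of which BPN array 2 lies farthest from its strain mean in the members. In kidney they were 1810058I24Rik, Rpp25l, Lgals1, Esrp1 and Ttc3 (0.90 to 0.93 over 14 arrays), and in liver Inhbb, Cfp, Serpinb2, Slc40a1 and Sde2 (0.84 to 0.90 over 15 arrays).

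Partners and regulators of C1q in the complement system gave few calls. Of 14 measured, BPH aorta had 3 lower and 0 higher than BPN (median difference -0.07), heart 2 and 0 (-0.10), kidney 0 and 2 (-0.03), and liver 1 and 0 (-0.01). Of all probe sets 4.7%, 3.51%, 3.39% and 3.85% were lower and 4.45%, 3.51%, 3.66% and 3.29% higher. C5ar1, the receptor for the fragment C5a, was lower in BPH aorta by -1.84 ± 0.28 (limma adjusted p = 3.9e-05), and C1ra, a protease that binds C1q, by -0.40 ± 0.08 (adjusted p = 0.00088). In heart Serping1, the inhibitor of C1, was lower in BPH by -0.41 ± 0.07. In kidney Cd55 and Cd59a, membrane inhibitors of complement, were higher in BPH by 0.73 ± 0.15 and 0.27 ± 0.07. In BPL heart had 4 lower and 0 higher (5.2% and 4.14% of all probe sets) and kidney 2 and 1 (3.02% and 3.22%). BPL aorta had 0 and 0 (5.2% and 5.14%) and BPL liver 1 and 1 (3.7% and 3.77%). In BPL liver C2, a classical pathway component, was higher by 0.53 ± 0.09.

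Other genes of mononuclear phagocytes were called lower in BPH heart, kidney and liver. Of 17 measured, 4 were lower and 0 higher in BPH than in BPN heart (3.51% and 3.51% of all probe sets). In kidney 7 were lower and 1 higher (3.39% and 3.66%), in liver 4 and 0 (3.85% and 3.29%), and in aorta 1 and 1 (4.7% and 4.45%). The medians were -0.16 in heart, -0.20 in kidney, -0.16 in liver and -0.29 in aorta. Mpeg1, a pore-forming protein of macrophages, was lower in BPH heart by -0.73 ± 0.13 (limma adjusted p = 0.0014), and Ptprc, the pan-leucocyte phosphatase, in BPH kidney by -0.79 ± 0.12 and in liver by -0.59 ± 0.10. Fcgr2b, the inhibitory immunoglobulin receptor, went the other way in BPH kidney, at 0.66 ± 0.07. In BPL, 8 were lower and 0 higher in heart (5.2% and 4.14% of all probe sets) and 5 and 0 in liver (3.7% and 3.77%). In BPL aorta the counts were 4 and 0 (5.2% and 5.14%), and in BPL kidney 0 and 0 (3.02% and 3.22%). The largest were Mpeg1 (-1.16 ± 0.13) and Cybb, the catalytic subunit of the phagocyte oxidase (-0.94 ± 0.09), in heart.

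Genes that mark resident macrophages were called most often in liver. Of 14 measured, 6 were lower and 2 higher in BPH than in BPN liver (3.85% and 3.29% of all probe sets). In BPL liver 6 were lower and 0 higher (3.7% and 3.77%). Marco, a scavenger receptor, was lower by -0.88 ± 0.19 in BPH and -1.10 ± 0.19 in BPL. Spic, a transcription factor of iron-recycling macrophages, was lower in BPH liver by -0.63 ± 0.15, and Timd4, a phosphatidylserine receptor of resident macrophages, was lower in BPL liver by -0.70 ± 0.10. Folr2 was higher in BPH liver by 1.12 ± 0.09 (limma adjusted p = 8.0e-08), against the direction of the members. In BPH aorta 3 were lower and 0 higher (4.7% and 4.45% of all probe sets). The 3 were Vsig4 (-1.24 ± 0.26), Timd4 (-1.23 ± 0.25) and F13a1 (-0.60 ± 0.12). In the remaining contrasts with BPN at most 2 were called in a direction, among them Gas6, a bridge to dying cells that other cells also make, higher in BPH kidney by 2.19 ± 0.08.

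Of 11 growth factors and transcription factors of macrophages measured, 2 were lower and 0 higher in BPH liver, Spi1, which encodes PU.1 (-0.40 ± 0.11, limma adjusted p = 0.033), and Zeb2 (-0.28 ± 0.08, adjusted p = 0.039), and 0 were called in BPH heart or kidney. In BPH aorta Csf1, the growth factor that acts on Csf1r, was higher by 0.52 ± 0.12 and Csf2ra by 0.49 ± 0.13, while Maf was lower by -0.38 ± 0.09. In BPL, 2 were lower in heart, Runx1 and Csf2ra, 1 in aorta, Runx1, and 0 in kidney and liver. Of all probe sets 3.85% were lower in BPH liver, and 4.45% were higher and 4.7% lower in BPH aorta. In BPL 5.2% were lower in heart, 5.2% in aorta, 3.02% in kidney and 3.7% in liver.

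Markers of other cell types moved beside the members in some groups. In BPH heart 3 of 8 neutrophil genes were higher and 0 lower, with S100a9 at 1.47 ± 0.16, and the summed level of the list was 442 to 714 against 296 to 393 in BPN. In BPL heart 4 of 5 mast cell genes were lower, the summed level being 196 to 211 against 267 to 293. In BPH kidney 2 of 5 T cell genes were lower (100 to 125 against 112 to 142 summed), and 3 of the 5 had BPH means below the lower quartile of the arrays. In BPH aorta 3 of 5 T cell genes and 2 of 4 B cell genes were lower (142 to 275 against 206 to 553, and 66 to 339 against 162 to 429), and 1 of 8 neutrophil genes was higher (748 to 9636 against 544 to 2187). Of 5 fibroblast genes in aorta, 2 were lower in BPH and 3 in BPL, among them Lum (-0.67 ± 0.09 and -0.51 ± 0.09), and the summed level was 23934 to 27223 in BPH and 22160 to 25583 in BPL against 26883 to 28889 in BPN. Of 5 cardiomyocyte genes in aorta, 2 were higher and 0 lower in BPH, and 2 higher and 0 lower in BPL. Their summed level was 832 to 4771 in BPH and 1087 to 2109 in BPL against 475 to 646 in BPN. The summed level of 3 hepatocyte genes, 0 of them called in aorta, had a median of 17.5 in BPL aortas and a highest value of 2176. In BPH kidney 1 of 8 neutrophil genes was higher, and in BPL kidney 1 was lower. In liver 1 of 5 T cell genes was lower in BPH, and 1 of 8 neutrophil genes in BPL. The part of these cells in the member values was not tested. Of all probe sets 3.51% were higher in BPH heart, 3.66% in BPH kidney, 4.45% in BPH aorta and 5.14% in BPL aorta. Lower were 3.39% in BPH kidney, 4.7% in BPH aorta and 3.85% in BPH liver. In BPL 5.2% were lower in heart, 5.2% in aorta, 3.02% in kidney and 3.7% in liver.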

How the data were processed

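Gene expression was measured on 67 single-colour arrays of aorta, heart, kidney and liver. The deposited values are linear intensities per probe set, summarised by RMA, per the submitters' processing notes; the version and the probe build are not given in the sources used here. The log2 values analysed here were computed from the deposited intensities with a pseudocount of 0. Arrays of a tissue share a nearly common distribution and depth has no counterpart, so the number of arrays limits the precision. Strains were compared within each tissue with limma 3.58.1 in R 4.3.3 (lmFit and eBayes, all 3 strains, no covariate), with p-values adjusted by Benjamini-Hochberg over 38385 probe sets and a threshold of 0.05. Differences between tissues were interaction contrasts in a joint fit. The fits were tested on simulated data. Relations between members used 100000 permutations within strains, and comparisons within arrays exact permutation tests.

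The members and gene lists were chosen with earlier results of these data known. All members are named. Of each list, at most 3 called genes of largest difference per tissue and contrast are named, and per tissue the 5 genes most alike in pattern. Replicate numbers are not known to pair arrays. Within a tissue the median correlation of same-numbered deviations was -0.02 in heart, -0.05 in kidney and 0.04 in liver, over 15, 13 and 15 pairs. So few pairs cannot exclude a shared batch or animal, and same-numbered arrays of different tissues were not compared. Alternatives covered the fit, array weights, variance moderation, normalisation, pseudocount, filter, probe set choice, strains in the fit, replicate block and leaving out each array.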

Additional observations from a re-analysis of the deposited data

Results flagged for a closer look

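Arrays were compared with the others of their strain and tissue by the gap of the highest or lowest value to its neighbour, relative to the whole range. Of 132 groups tested 14 exceeded the 95% limit of this measure, and chance alone gives about 1 in 20.

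Aorta BPN array 14 was far below its group for C1qc (log2 intensity 8.58), Adgre1 (6.42), Cd163 (7.54) and the mean of the 10 members (6.71). Heart BPN array 2 was far above its group for C1qb (9.86), Csf1r (8.43), Adgre1 (7.65), Mrc1 (8.75), Cd163 (7.51) and the mean of the 10 members (7.59). Aorta BPH array 5 was far above its group for C1qb (9.42). C1qa was high on heart BPL array 5 (9.32) and on kidney BPH array 3 (7.03). Lyz2, which lies below the lower quartile of the arrays, was high on liver BPH array 3 (2.08).

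The BPL minus BPN difference of Lyz2 differed between aorta and liver by -0.345 in the joint limma fit (adjusted p = 0.040).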

How the results depend on the processing

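No difference of a called member changed sign under any alternative. The joint fit of all tissues moved the most calls, 15 members lost and 13 gained: it called 6 members in aorta BPH minus BPN, 3 in aorta BPL minus BPN, 4 in aorta BPH minus BPL, 4 in heart BPL minus BPN, 0 in heart BPH minus BPL, 0 in liver BPL minus BPN and 1 in liver BPH minus BPL, and in BPH minus BPN 4 in heart, 3 in kidney and 4 in liver. The joint fit pools the spread of each probe set over tissues, and its gains were all in aorta and its losses all in other tissues. Aorta BPH minus BPL gave 2 with array weights, 2 with the filter at the tissue median and 2 with only the strains compared, and aorta BPH minus BPN gave 1 with array weights. Heart BPH minus BPL gave 2 with 1 probe set per gene, array weights, the filter, median centring, a pseudocount of 16 and trended robust moderation, and 3 with only the strains compared. Kidney BPH minus BPN gave 2 with the filter, which tests fewer members. Leaving out each array in turn gave 0 to 5, 0 to 2 and 0 to 3 members in aorta (BPH minus BPN, BPL minus BPN, BPH minus BPL), 4 to 5, 7 to 7 and 1 to 3 in heart, 3 to 4, 0 to 1 and 2 to 3 in kidney, and 5 to 6, 2 to 7 and 2 to 2 in liver. Between tissues, quantile normalisation gave 2 members for BPH and 1 for BPL in aorta against kidney, 1 for BPL in heart against aorta and 1 for BPL in heart against kidney; a fit of only the tissues compared gave 0 for BPL in aorta against liver, 2 in heart against kidney and 1 in kidney against liver. Leaving out arrays gave 0 to 1 for BPL in aorta against kidney and in heart against aorta, 0 to 2 in aorta against liver, and 0 to 0 in the other comparisons. Without the 2 arrays farthest from the C1qb median, relations passing numbered 0 in liver, 2 in kidney, 1 in heart and 1 in aorta. The replicate numbers are not known to pair arrays. With the replicate number as a block, Adgre1 in liver BPL minus BPN was called (adjusted p = 0.032) and Cd163 in heart BPH minus BPN was not (adjusted p = 0.093), and no other member call changed; no block could be fitted in aorta. Where the cause of a change is not named, the cause was not tested.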
